A study of Mus musculus with 9 samples.

Results

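Granule neurons are the principal excitatory cells of the dentate gyrus, the input field of the hippocampus. They receive entorhinal axons and send mossy fibres, with large terminals, to CA3 pyramidal neurons and to the mossy cells of the hilus. Most rodent granule neurons are made after birth, so the cells form and mature during nursing. Their identity rests on the homeobox factor Prox1, and calbindin, encoded by Calb1, is the classic protein marker of the mature cell.

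A list of 10 genes with enriched expression in these neurons was examined: Prox1, Dsp, Calb1, C1ql2, Dock10, Ahcyl2, Trpc6, Tdo2, Glis3 and Lct. The 10 genes were taken by symbol from the 23412 gene symbols measured by bulk RNA sequencing, and all 10 were found. The samples were 9 hippocampus RNA samples of wild-type mice at postnatal day 21. Of these, 3 came from pups exposed on postnatal days 8 to 14 (PFOS P8-14), 3 from pups exposed on days 1 to 7 (PFOS P1-7) and 3 from sham-treated pups (control). Perfluorooctane sulfonate (PFOS) is a persistent fluorinated surfactant, and exposed pups took it in with the milk of dams gavaged daily at 1 mg/kg body weight. The study asked which of these nursing windows is the sensitive one. Strain, sex and litter are not given in the labels, nor whether each sample is 1 animal, so p-values measure only the spread between these samples, which may be technical.

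Levels are TPM, an RSEM abundance corrected for transcript length and scaled to a common total, for which sequencing depth is unknown. All 10 genes had at least 1 TPM in each of the 9 libraries, so no gene was lost to the filter on low values and the marker set of the labelled tissue was detected throughout. None of the genes is exclusive to granule neurons in whole tissue. Calbindin is also made by CA1 pyramidal neurons and interneurons, Prox1 by a class of interneurons, and Dsp by cells of the meninges. In bulk tissue, fewer granule neurons and less RNA per granule neuron cannot be told apart.

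The promoters of 9 of the 10 genes were matched in RefSeq (GRCm38.p6), as 13 windows from 250 bases before to 50 bases after a start site. The windows were searched on both strands for the E-boxes CAGCTG and CATCTG, the kind of site bound by neurogenic bHLH factors such as Neurod1, for the TCF/LEF core CTTTGA and for the cyclic AMP response element TGACGTCA. CAGCTG was in 2 of the 13 windows, CATCTG in 3, CTTTGA in 2 and TGACGTCA in 0, against 16.3%, 17.2%, 16.0% and 1.79% of all 32851 promoter windows. Shown are a Prox1 start at chr1:190170778-190171077 (minus strand), as the factor that defines the cell type, and the Dsp start at chr13:38151044-38151343 (plus strand), as the gene with the smallest p below. The inner Dock10 start at chr1:80665303-80665602 (minus strand) is shown as the window with 3 of the 4 motifs. Each is written 5′ to 3′ on the gene's strand, with capitals for motif letters on either strand and no motif overlapping another.
Prox1: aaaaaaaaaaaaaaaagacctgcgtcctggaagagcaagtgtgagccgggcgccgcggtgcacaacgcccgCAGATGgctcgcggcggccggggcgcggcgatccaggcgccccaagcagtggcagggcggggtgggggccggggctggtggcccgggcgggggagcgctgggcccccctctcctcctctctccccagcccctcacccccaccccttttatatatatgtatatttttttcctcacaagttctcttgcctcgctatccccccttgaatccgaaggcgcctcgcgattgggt
Dsp: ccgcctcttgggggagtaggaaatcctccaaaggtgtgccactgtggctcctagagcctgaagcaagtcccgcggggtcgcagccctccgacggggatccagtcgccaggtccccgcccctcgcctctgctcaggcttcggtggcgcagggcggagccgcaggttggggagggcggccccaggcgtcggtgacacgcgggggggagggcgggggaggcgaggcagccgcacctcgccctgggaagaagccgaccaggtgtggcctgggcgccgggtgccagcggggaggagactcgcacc
Dock10: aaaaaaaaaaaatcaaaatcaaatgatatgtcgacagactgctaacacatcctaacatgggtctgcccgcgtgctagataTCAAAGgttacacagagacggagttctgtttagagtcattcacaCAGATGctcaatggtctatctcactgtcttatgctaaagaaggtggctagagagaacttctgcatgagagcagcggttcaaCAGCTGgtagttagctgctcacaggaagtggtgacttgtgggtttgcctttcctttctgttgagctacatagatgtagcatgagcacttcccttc
The Prox1 window shown holds 1 E-box (CAGATG, which is CATCTG on the other strand). It lies wholly upstream of the Prox1 gene position given below, which is from another annotation. A further Prox1 window, at chr1:190169466-190169765, holds none of the 4 motifs. The Dsp window holds none of the 4 motifs, and the Dock10 window holds both E-boxes and the TCF/LEF core.

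Several libraries stood apart in ways that touch these genes. Ttr, the transthyretin gene that choroid plexus epithelium expresses strongly, was between 9446 and 11626 TPM in PFOS P8-14 replicates 1 and 2, PFOS P1-7 replicates 1 and 3 and control replicate 3, and between 35.1 and 108 TPM in the other 4 libraries. The summed level of the 13 choroid plexus markers spanned 129 to 10090 TPM in PFOS P8-14, 60.05 to 11977 TPM in PFOS P1-7 and 49.6 to 10572 TPM in control, and none of the 13 was at 0. Ttr made up most of the high sums. The mean log2 deviation of the 13 genes from their own means was 0.89 in control replicate 3. It was 2.03 and 1.42 in PFOS P8-14 replicates 1 and 2, and 2.00 and 1.99 in PFOS P1-7 replicates 1 and 3. Control replicate 3 was thus lower on these markers than the other libraries of high Ttr. Deviations of genes from their own mean also ran with transcript length, with Spearman's rho across 14214 genes of -0.30 in control replicate 3 and -0.26 in control replicate 2, against 0.11 in control replicate 1, 0.086 to 0.27 in PFOS P1-7 and -0.09 to 0.17 in PFOS P8-14. Genes are not independent replicates. Over the 14336 genes tested, limma called 0 in each of the 3 comparisons at an adjusted p below 0.05, with 2627 (PFOS P1-7 against control), 1573 (PFOS P8-14 against control) and 158 (PFOS P8-14 against PFOS P1-7) at an unadjusted p below 0.05. No difference described below therefore passed the threshold over all genes, and each is given as a value with its error.

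Across the 9 libraries the levels ran from Ahcyl2 at 107 TPM on average through Calb1 (69.7), C1ql2 (56.3), Prox1 (41.5), Dock10 (26.0), Lct (18.4), Dsp (15.1), Tdo2 (10.2) and Trpc6 (7.88) to Glis3 at 2.83 TPM. The library ranges of neighbours in that order overlapped in each case except Trpc6 and Glis3, every Trpc6 value lying above every Glis3 value. The steadiest member within groups was Ahcyl2, with a coefficient of variation of 5.17%, followed by Dsp at 7.13%, and the most variable were Prox1 at 31.4% and Glis3 at 30.1%.

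**Figure D1:**
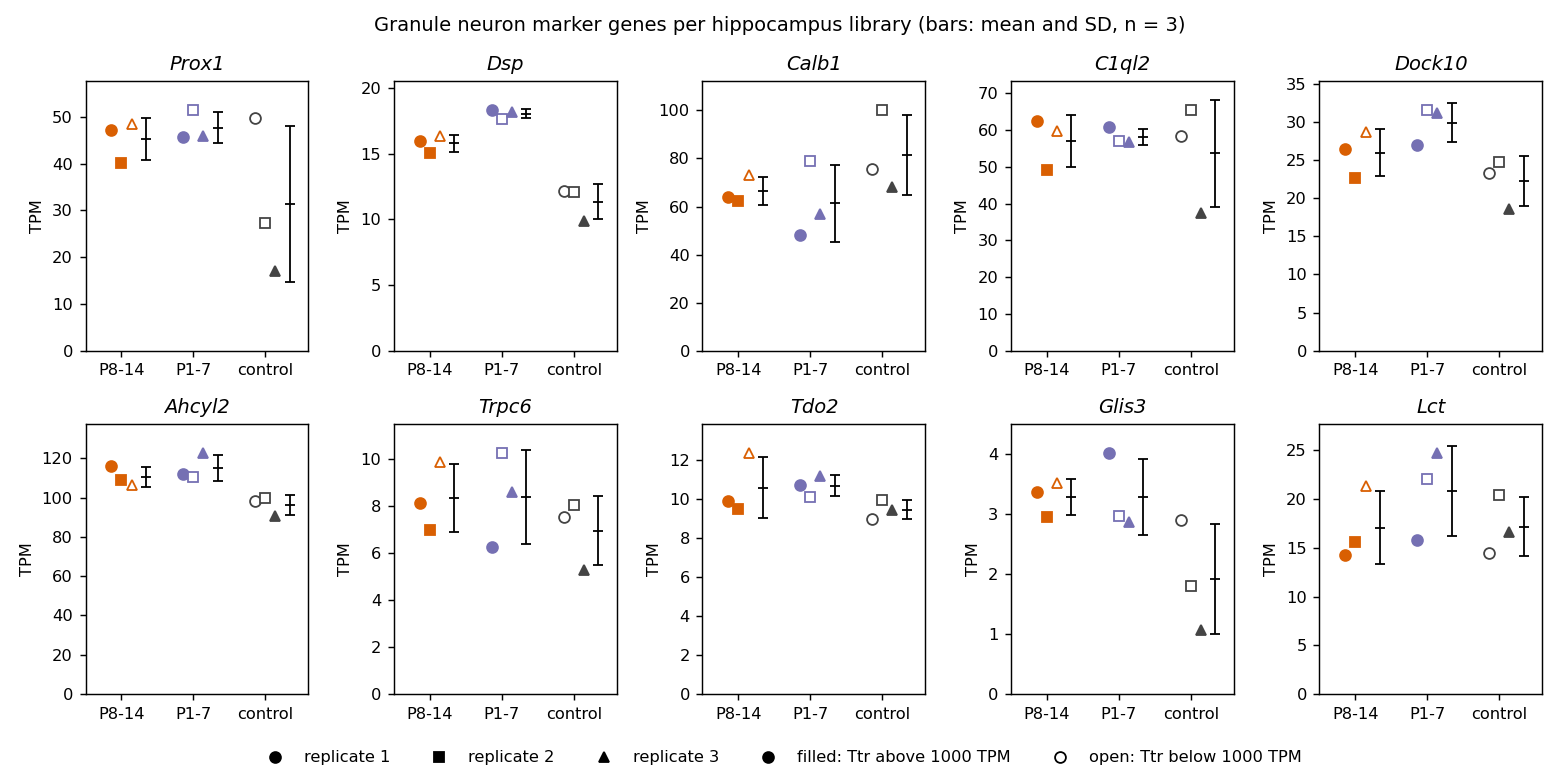
TPM of each of the 10 granule neuron genes (y axis, from 0) in the PFOS P8-14, PFOS P1-7 and control libraries (x axis), with a symbol per replicate, filled where Ttr was above 1000 TPM, and bars for mean and SD (n = 3). Dsp lies at 15.1 to 16.3 TPM in PFOS P8-14 and 17.7 to 18.3 TPM in PFOS P1-7, above the 9.85 to 12.1 TPM of control, and Prox1 spreads from 17.1 to 49.7 TPM within control.

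Taken by their roles, the transcription factors come first. Prox1 (chromosome 1, 190118035 to 190170714, minus strand; all gene positions are on GRCm38) directs progenitors to the granule fate and maintains it. It stood at 47.3, 40.2 and 48.4 TPM in PFOS P8-14, at 45.7, 51.5 and 46.0 TPM in PFOS P1-7 and at 49.7, 27.4 and 17.1 TPM in control. The 6 exposed libraries lay close together, while control spanned nearly its whole 9-library range, control replicate 1 standing above 5 of the 6 exposed libraries. The log2 difference was 0.71 (SE 0.29; limma adjusted p = 0.248) for PFOS P1-7 minus control and 0.64 (SE 0.29; adjusted p = 0.455) for PFOS P8-14 minus control. Control replicates 1 and 3 decide its size, since the difference in PFOS P1-7 was 1.10 without replicate 1 (adjusted p = 0.00719) and 0.36 without replicate 3 (adjusted p = 0.526). In PFOS P8-14 it was 1.02 without control replicate 1 (adjusted p = 0.0136) and 0.28 without control replicate 3 (adjusted p = 0.788). An antisense transcript, Prox1os, overlaps a Prox1 exon by up to 133 bases and is not among the gene symbols measured. The libraries were stranded, but the strand setting of the quantification is not stated. Whether reads of the antisense transcript were counted for Prox1 is therefore unknown. The same holds for Gm10129 on Dsp (up to 499 bases) and 4930528J11Rik on Ahcyl2 (up to 288 bases).

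Glis3 (chromosome 19, 28258851 to 28680077) encodes a Krüppel-like zinc finger factor known from pancreatic beta cells and thyroid. It was the rarest member, at 3.37, 2.95 and 3.52 TPM in PFOS P8-14, 4.01, 2.97 and 2.87 TPM in PFOS P1-7 and 2.89, 1.80 and 1.07 TPM in control. The PFOS P8-14 libraries were all above the control libraries, and those of PFOS P1-7 overlapped with control only through control replicate 1 and PFOS P1-7 replicate 3. The log2 difference was 0.59 (SE 0.22; adjusted p = 0.230) in PFOS P1-7 and 0.60 (SE 0.22; adjusted p = 0.426) in PFOS P8-14, each against control. The same control libraries moved it: without control replicate 1 it was 0.82 in PFOS P1-7 (adjusted p = 0.0223) and 0.83 in PFOS P8-14 (adjusted p = 0.0295), and without control replicate 3 it was 0.37 in both (adjusted p = 0.508 and 0.779). On the log2(TPM + 5) scale, which compresses low levels, it was 0.27 in both.

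Dsp (chromosome 13, 38151294 to 38198577, plus strand) encodes desmoplakin, which ties desmosomal cadherins to intermediate filaments in epithelia and heart and in the forebrain marks the granule cell layer. It was 16.0, 15.1 and 16.3 TPM in PFOS P8-14, 18.3, 17.7 and 18.1 TPM in PFOS P1-7 and 12.1, 12.1 and 9.85 TPM in control. The 3 groups did not overlap, and the order PFOS P1-7, PFOS P8-14, control held for every library. Dsp had the smallest p of the 10 genes in both comparisons with control. PFOS P1-7 exceeded control by 0.63 (SE 0.10; limma unadjusted p = 0.000109, adjusted p = 0.181), or 1.55-fold, which placed it 7th of 14336 genes by p. PFOS P8-14 exceeded control by 0.45 (SE 0.10; unadjusted p = 0.00137, adjusted p = 0.424), or 1.36-fold. The value for PFOS P1-7 was 0.54 to 0.68 with any single library left out. Dsp has a median transcript length of 7761 bases, longer than 99.4% of tested genes, and once each library's trend on length and GC content had been taken out its difference was 0.34 in PFOS P1-7 and 0.21 in PFOS P8-14 (adjusted p = 0.272 and 0.509). The meningeal list, whose cells also make desmoplakin, summed to 51.15 to 108 TPM in PFOS P8-14, 47.7 to 70.4 TPM in PFOS P1-7 and 46.9 to 96.3 TPM in control. Its part in the Dsp result was not tested.

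Dock10 (chromosome 1, 80501073 to 80758527, minus strand) encodes a protein that takes part in shaping dendritic spines. It read 26.5, 22.7 and 28.7 TPM in PFOS P8-14, 27.0, 31.6 and 31.1 TPM in PFOS P1-7 and 23.4, 24.8 and 18.6 TPM in control. All PFOS P1-7 libraries were above all control libraries, and PFOS P8-14 replicate 2 fell inside the control range. The log2 differences from control were 0.42 (SE 0.13; adjusted p = 0.21) in PFOS P1-7 and 0.22 (SE 0.13; adjusted p = 0.509) in PFOS P8-14. After removal of the length and GC trend they were 0.19 (adjusted p = 0.415) and 0.066 (adjusted p = 0.811). In PFOS P8-14 the difference was 0.099 without control replicate 3 and 0.15 without PFOS P8-14 replicate 3.

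Of the genes of calcium handling and synapse, Calb1 (chromosome 4, 15881264 to 15908064) was the only member with a lower mean than control in both exposed groups. Calbindin binds calcium in the cytosol with high affinity and appears late in granule neuron maturation. It was 64.1, 62.4 and 73.1 TPM in PFOS P8-14, 48.2, 78.9 and 56.7 TPM in PFOS P1-7 and 75.7, 100.2 and 68.3 TPM in control. Each exposed group overlapped with control. The log2 difference was -0.42 (SE 0.18; limma unadjusted p = 0.0488, adjusted p = 0.270) in PFOS P1-7 and -0.27 (SE 0.18; adjusted p = 0.547) in PFOS P8-14. In PFOS P1-7 it was -0.26 without control replicate 2 and -0.26 without PFOS P1-7 replicate 1 (unadjusted p = 0.193 and 0.194), and in PFOS P8-14 it was -0.11 without control replicate 2. Calb1 was also the 1 member that separated the libraries by Ttr: it was 48.2 to 68.3 TPM in the 5 libraries with Ttr above 1000 TPM and 73.1 to 100.2 TPM in the 4 below, where 0.809% of tested genes were lower and 4.12% higher in this way. Among the libraries with high Ttr the difference was -0.38 in PFOS P1-7 (2 libraries against 1 control) and -0.11 in PFOS P8-14 (2 against 1), and among those with low Ttr it was -0.14 and -0.25 (1 library each against 2 controls). With a choroid plexus score as covariate it was -0.23 in PFOS P1-7 (adjusted p = 0.319) and -0.097 in PFOS P8-14 (adjusted p = 0.729).

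Ahcyl2 (chromosome 6, 29768011 to 29912310) encodes a relative of S-adenosylhomocysteine hydrolase and of IRBIT, a protein that binds the inositol trisphosphate receptor. It stood at 116, 109 and 106 TPM in PFOS P8-14, at 112, 111 and 123 TPM in PFOS P1-7 and at 98.5, 99.6 and 90.6 TPM in control. Both exposed groups lay wholly above control. The log2 difference was 0.26 (SE 0.07; adjusted p = 0.201) in PFOS P1-7 and 0.20 (SE 0.07; adjusted p = 0.426) in PFOS P8-14. Its median length over all annotated transcripts, 986 bases, is below the 1484 bases of the median tested gene. After removal of the length and GC trend the differences were 0.18 and 0.15.

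C1ql2 (chromosome 1, 120340582 to 120343174) encodes a secreted C1q-like protein that granule neurons release at mossy fibre synapses. It read 62.5, 49.1 and 59.7 TPM in PFOS P8-14, 60.7, 57.0 and 56.8 TPM in PFOS P1-7 and 58.2, 65.5 and 37.4 TPM in control. The highest and the lowest library were both controls. The log2 differences were 0.15 (95% confidence interval -0.25 to 0.56) and 0.12 (-0.29 to 0.52) in PFOS P1-7 and PFOS P8-14, and they were -0.085 and -0.12 without control replicate 3 and 0.31 and 0.28 without control replicate 2. Trpc6 (chromosome 9, 8544142 to 8680741), a receptor-operated cation channel, ranged from 6.99 to 9.88 TPM in PFOS P8-14, from 6.26 to 10.2 TPM in PFOS P1-7 and from 5.27 to 8.05 TPM in control. The groups overlapped, with log2 differences from control of 0.23 (-0.22 to 0.68) in PFOS P1-7 and 0.24 (-0.21 to 0.69) in PFOS P8-14. They were 0.43 and 0.42 with the choroid plexus score as covariate (adjusted p = 0.154 and 0.282), and 0.020 and 0.091 after removal of the length and GC trend. Without control replicate 3 they were 0.071 and 0.076. In PFOS P1-7 the difference was 0.40 without PFOS P1-7 replicate 1 and 0.089 without PFOS P1-7 replicate 2, and in PFOS P8-14 it was 0.12 without PFOS P8-14 replicate 3.

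Tdo2 and Lct are enzyme genes best known from other organs. Tdo2 (chromosome 3, 81957090 to 81976202) encodes tryptophan 2,3-dioxygenase, the first enzyme of the kynurenine pathway in liver. It was 9.90, 9.49 and 12.3 TPM in PFOS P8-14, 10.7, 10.1 and 11.2 TPM in PFOS P1-7 and 8.95, 9.92 and 9.43 TPM in control. PFOS P1-7 lay just above control with no overlap, by 0.16 on the log2 scale (95% confidence interval -0.10 to 0.42), and PFOS P8-14 overlapped with control at 0.14 (-0.12 to 0.40). Quantile normalization gave 0.039 and 0.055, and without PFOS P8-14 replicate 3 the second difference was 0.037. Lct (chromosome 1, 128284756 to 128328318), the lactase of the intestinal brush border, was 14.3, 15.6 and 21.3 TPM in PFOS P8-14, 15.8, 22.1 and 24.7 TPM in PFOS P1-7 and 14.4, 20.4 and 16.7 TPM in control. Its groups overlapped throughout. The log2 difference was 0.26 (-0.19 to 0.70) in PFOS P1-7 and -0.015 (-0.46 to 0.43) in PFOS P8-14. In PFOS P1-7 it was 0.44 without PFOS P1-7 replicate 1 (unadjusted p = 0.0482, adjusted p = 0.308), 0.13 without PFOS P1-7 replicate 3, 0.15 without control replicate 1 and 0.062 after removal of the length and GC trend.

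The members did not form 1 block across libraries. Control replicate 3 was the lowest library for 7 of the 10 genes, where it was the lowest for 24.6% of all tested genes, and none of the 10 was above its own mean there. Control replicates 1 and 2 were each above the mean for 4 genes, whereas PFOS P8-14 replicate 3 and PFOS P1-7 replicates 2 and 3 were above it for 9 genes each. PFOS P8-14 replicate 2 also had 4 genes above the mean and a median deviation of -0.11. Median deviations of the 10 genes were 0.08, -0.11 and 0.19 in PFOS P8-14, 0.07, 0.22 and 0.17 in PFOS P1-7 and -0.08, -0.04 and -0.47 in control. The exposed and control libraries therefore overlapped in this summary, through PFOS P8-14 replicate 2, and control replicate 3 stood well below the rest.

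Counted over the comparison of PFOS P1-7 with control, 9 of the 10 genes were higher, against 65.5% of tested genes. At an unadjusted limma p below 0.05 there were 5 higher members (Prox1, Dsp, Dock10, Ahcyl2 and Glis3), where 12.5% of tested genes were higher, and 1 lower member (Calb1), where 5.79% were lower. None passed the adjusted threshold, which 0% of tested genes did. Dsp, Dock10, Ahcyl2 and Tdo2 were higher with no overlap between the groups, against 12.3% of tested genes, and 0 members were lower in this way, against 6.56%. The median log2 difference of the 10 was 0.26, and 0.09 over all tested genes. Leaving out single libraries gave 0.21 to 0.42, the highest without PFOS P1-7 replicate 1 (0.09 over all tested genes). With a choroid plexus score as covariate the median was 0.40, beside 0.08. Removal of the length and GC trend brought the median of the 10 below 0.26. It made the differences of Dsp, Dock10, Ahcyl2, Trpc6 and Lct smaller, as given above. Since the genes were chosen with earlier results of these data known, no test was made over the list.

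In the comparison of PFOS P8-14 with control, 8 of the 10 genes were higher, against 62.1% of tested genes. Dsp, Ahcyl2 and Glis3 were higher at an unadjusted limma p below 0.05, against 6.33% of tested genes, and 0 members were lower, against 4.65%; no member passed the adjusted threshold, nor did any tested gene (0%). The same 3 members were higher with no overlap between the groups, against 7.31% of tested genes, and 0 were lower, against 5.99%. The median log2 difference was 0.21, beside 0.06 over all tested genes. Leaving out single libraries gave 0.12 to 0.29. The median was 0.12 without control replicate 3, beside 0.04, and 0.13 without PFOS P8-14 replicate 3, beside 0.06. After removal of the length and GC trend it was 0.10, beside -0.01. Both comparisons share the same 3 control libraries.

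**Figure D2:**
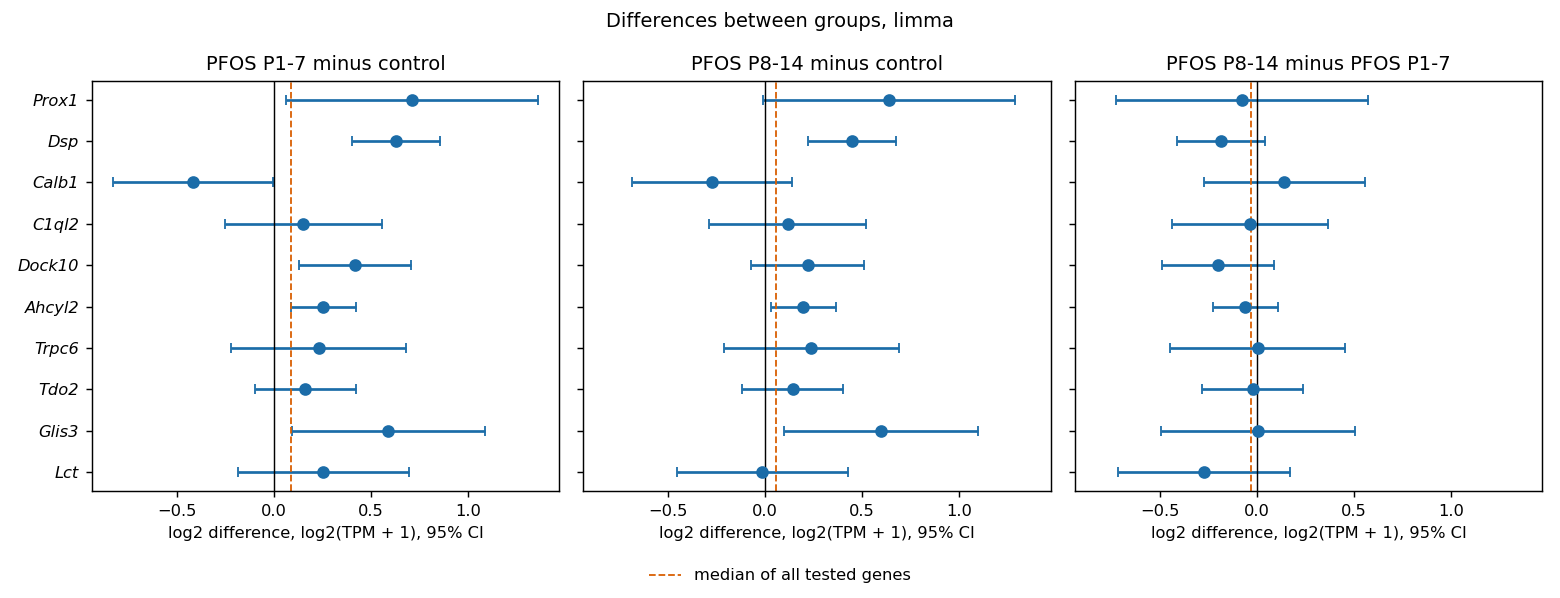
Log2 differences between groups (x axis, on the log2(TPM + 1) scale) for the 10 genes (y axis), with 95% confidence intervals from limma over 9 libraries and a dashed line at the median of all tested genes. Against control the interval of Dsp lies above the dashed line in both windows, from 0.40 to 0.86 in PFOS P1-7 and from 0.22 to 0.67 in PFOS P8-14, and the Calb1 estimate lies below 0 in both.

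The exposure windows were also set against each other. All samples were taken at postnatal day 21, after exposure that ended on day 7 or day 14. Age at exposure, time since exposure and litter, which is not given, therefore cannot be told apart in this comparison. Of the 10 genes, 3 were higher in PFOS P8-14 than in PFOS P1-7 (38.8% of tested genes were higher), and the median log2 difference was -0.05, beside -0.03 over all tested genes. None had an unadjusted limma p below 0.05, where 0.467% of tested genes were higher and 0.635% lower, and none passed the adjusted threshold, which 0% of tested genes did. Dsp was the 1 member whose groups did not overlap, at 15.1 to 16.3 TPM in PFOS P8-14 and 17.7 to 18.3 TPM in PFOS P1-7, a direction in which 4.15% of tested genes did not overlap, and 0 members were higher in this way, against 1.9%. Its log2 difference was -0.18 (95% confidence interval -0.41 to 0.04; adjusted p = 1). The intervals of Prox1 (-0.73 to 0.57) and Glis3 (-0.49 to 0.50) are wide, and for the steadier Ahcyl2 the interval was -0.23 to 0.11. Lct stood at 17.1 ± 3.74 TPM in PFOS P8-14 and 20.9 ± 4.61 TPM in PFOS P1-7 (SD, n = 3 each), a log2 difference of -0.27 (-0.71 to 0.17).

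Ratios of 2 genes within a library do not depend on how a library is scaled, and were taken for the 45 pairs after the values had been seen, as a description. In PFOS P1-7 against control, 10 of the 45 ratios did not overlap between the groups, where 17.3% of all pairs of tested genes did not. In PFOS P8-14 against control there were 11, where 13.3% did not, and between PFOS P8-14 and PFOS P1-7 there was 1 (Dsp relative to Tdo2), where 6.02% did not. Dsp was lower relative to 26% of tested genes in that comparison. All but 2 of the 14 pairs involved hold Calb1 or Dsp. Calb1 was lower relative to 5 of the 9 other members in PFOS P1-7 and to 7 of 9 in PFOS P8-14, where 23% and 24.2% of its ratios to all tested genes were lower in this way. Dsp was higher relative to 5 of the 9 other members in PFOS P1-7 and to 3 of 9 in PFOS P8-14, smaller shares than its 73.4% and 59.4% over all tested genes.

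The ratio of Dsp to Calb1 was 0.249, 0.242 and 0.223 in PFOS P8-14, 0.380, 0.224 and 0.320 in PFOS P1-7 and 0.160, 0.121 and 0.144 in control. Every exposed library was above every control library, including those with low Ttr. Median lengths over all annotated transcripts of a gene, not weighted by expression, are 7761 bases for Dsp and 736 for Calb1. They need not be the lengths of the transcripts present in this tissue. The ratio of Calb1 to Ahcyl2, with such median lengths of 736 and 986 bases and median GC contents of 37.0% and 47.9%, was 0.552, 0.573 and 0.687 in PFOS P8-14, 0.430, 0.714 and 0.462 in PFOS P1-7 and 0.768, 1.01 and 0.754 in control. The exposed libraries were all below the controls, the nearest being PFOS P1-7 replicate 2 and control replicate 3. The part of length and GC content in these ratios was not tested.

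**Figure D3:**
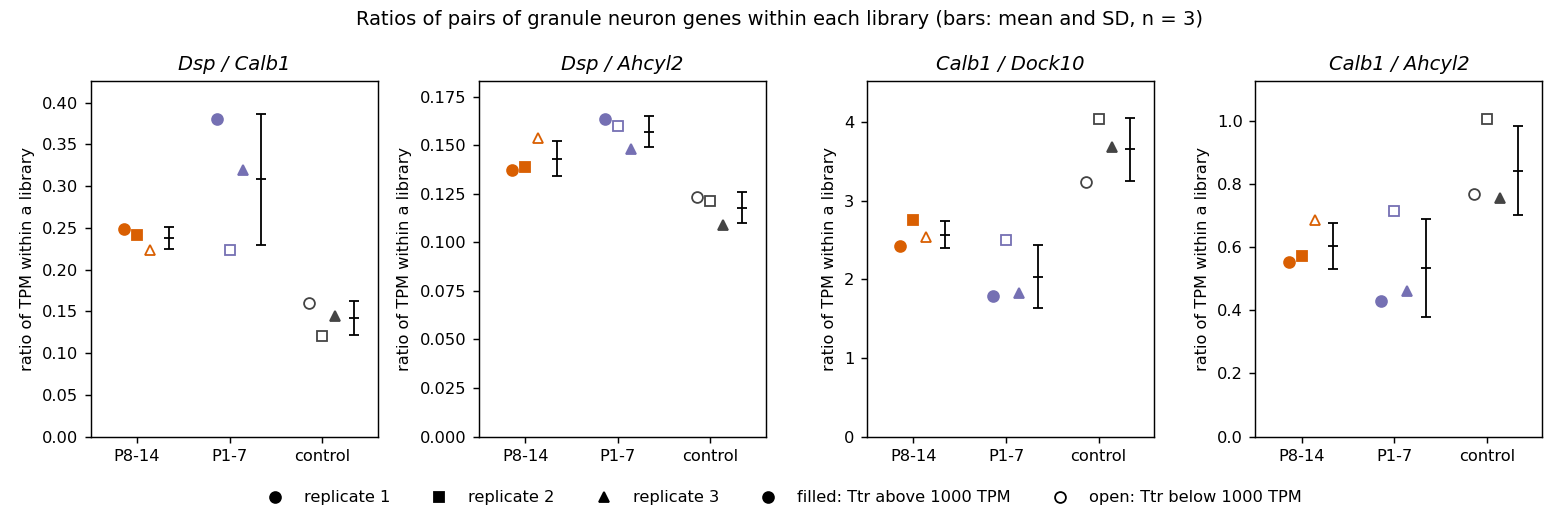
Within-library TPM ratios of 4 pairs of granule neuron genes (y axis, from 0) in the PFOS P8-14, PFOS P1-7 and control libraries (x axis), with a symbol per replicate, filled where Ttr was above 1000 TPM, and bars for mean and SD (n = 3). The Dsp to Calb1 ratio is 0.238 ± 0.013 in PFOS P8-14 and 0.308 ± 0.079 in PFOS P1-7, above 0.142 ± 0.020 in control, and the Calb1 to Ahcyl2 ratio lies below control in all 6 exposed libraries.

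Within the libraries of high Ttr, which hold 1 control, 8 of the 10 genes were higher in PFOS P8-14 and 9 in PFOS P1-7 than in control. Within those of low Ttr, with 2 controls, 8 were higher in PFOS P8-14 and 8 in PFOS P1-7. Shares of all tested genes within this split were not computed, so the counts are not read as particular to the members. Over all 9 libraries, 62.1% of tested genes were higher in PFOS P8-14 and 65.5% in PFOS P1-7. The sizes differed. For Prox1 the log2 difference of PFOS P1-7 from control was 1.37 where Ttr was high and 0.47 where it was low, and for C1ql2 it was 0.64 and -0.11. Dsp was 0.83 and 0.51 higher, and Ahcyl2 0.37 and 0.16. The only control with high Ttr is replicate 3, so the level of Ttr and that library cannot be told apart here. Its choroid plexus markers as a list were also lower than in the exposed libraries of high Ttr, as given above.

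A further list of 20 genes enriched in granule neurons, written from general knowledge, was set beside the 10. In PFOS P1-7 against control, 16 of the 20 were higher (65.5% of tested genes), with a median log2 difference of 0.25, beside 0.09. At an unadjusted limma p below 0.05, 10 were higher and 0 lower (12.5% and 5.79% of tested genes), and 7 were higher with no overlap (12.3%). In PFOS P8-14, 17 were higher (62.1% of tested genes) with a median of 0.13, beside 0.06. There, 1 was higher at an unadjusted p below 0.05 (Sema5a), and 1 was higher (Dgat2) and 1 lower (Gabrd) with no overlap, Dgat2 and Gabrd being named after their values were seen. These counts of 1 in 20 were no higher than the shares of all tested genes, 6.33% by p and 7.31% higher or 5.99% lower without overlap. None passed over all genes. Between the windows, 3 of the 20 were higher in PFOS P8-14 than in PFOS P1-7 (38.8% of tested genes) and 17 lower, with a median of -0.12 beside -0.03, and 0 had an unadjusted p below 0.05.

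Sema5a, an axon guidance protein made by granule neurons, had the smallest p of this list over the 3 groups (limma unadjusted p = 0.0210, adjusted p = 0.425). It stood at 39.9, 42.1 and 45.8 TPM in PFOS P8-14, 41.3, 45.9 and 43.4 TPM in PFOS P1-7 and 41.2, 29.4 and 26.5 TPM in control, a log2 difference of 0.41 (SE 0.14; adjusted p = 0.426) in PFOS P8-14 and 0.44 (SE 0.14; adjusted p = 0.21) in PFOS P1-7. Control replicate 1 was above 1 of the PFOS P8-14 libraries and just below those of PFOS P1-7. Npnt, the matrix protein nephronectin, followed at 23.6 ± 3.16 TPM in PFOS P8-14, 26.7 ± 1.00 TPM in PFOS P1-7 and 17.7 ± 5.64 TPM in control (SD, n = 3 each), with log2 differences from control of 0.43 in PFOS P8-14 and 0.61 in PFOS P1-7 (adjusted p = 0.455 and 0.21). Igfbp5, which binds insulin-like growth factors, was at 58.9 ± 4.16, 65.7 ± 6.38 and 53.6 ± 3.43 TPM in PFOS P8-14, PFOS P1-7 and control. Maml2, a Notch coactivator, was at 8.73 ± 0.64, 10.3 ± 0.84 and 7.93 ± 1.22 TPM in the same groups.

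Genes of immature granule neurons and their precursors did not move as one. Of the 9 tested from a list of 10 (Neurod4 was below 1 TPM in every library), 7 were higher in PFOS P1-7 and 6 in PFOS P8-14 than in control. Of all tested genes, 65.5% and 62.1% were higher. The list medians were 0.14 and 0.15, beside 0.09 and 0.06 over all tested genes. Dcx, the microtubule protein doublecortin of young neurons, was 15.9, 18.4 and 19.2 TPM in PFOS P8-14, 15.3, 19.8 and 18.0 TPM in PFOS P1-7 and 20.5, 13.2 and 12.3 TPM in control. The groups overlapped, with log2 differences of 0.24 (SE 0.18) in PFOS P8-14 and 0.23 (SE 0.18) in PFOS P1-7. At an unadjusted limma p below 0.05, Sox4 (log2 difference 0.75) and Neurod1 (0.29) were higher and Stmn1 (-0.40) lower in PFOS P1-7, against 12.5% higher and 5.79% lower of tested genes. In PFOS P8-14, Sox4 (0.64) and Eomes (0.71) were higher and Stmn1 (-0.39) lower, against 6.33% and 4.65%. These 4 genes were named after their values were seen; Sox4, Neurod1 and Eomes encode transcription factors of precursors and young neurons. None passed over all genes. Stmn1, a tubulin-binding protein of growing neurites, was the 1 gene of the list without overlap against control, where 6.56% (PFOS P1-7) and 5.99% (PFOS P8-14) of tested genes were lower in this way. It stood at 464 ± 69.3 TPM in PFOS P8-14, 464 ± 91.6 TPM in PFOS P1-7 and 607 ± 53.1 TPM in control (adjusted p = 0.443 and 0.240).

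Other hippocampal cell types were read from marker lists of the same kind. Medians of log2 differences from control in PFOS P1-7 were 0.07 for 7 CA1 pyramidal genes, 0.05 for 6 CA2 genes, 0.19 for 6 CA3 genes, 0.08 for 10 interneuron genes and 0.11 for 8 pan-neuronal genes. In PFOS P8-14 they were -0.11, 0.08, 0.22, 0.11 and 0.10, the CA3 value standing beside 0.21 for the 10 members. All tested genes had 0.09 and 0.06. Higher without overlap in PFOS P1-7 were 1, 0, 2, 1 and 2 genes of these lists (12.3% of tested genes), and 1 CA2 gene was lower (6.56%). The counts in PFOS P8-14 were 1, 0, 2, 0 and 0 (7.31%), and 1 interneuron gene was lower (5.99%). Gad1, which makes GABA in interneurons, was at 233 ± 8.70 TPM in PFOS P8-14, 243 ± 27.5 TPM in PFOS P1-7 and 218 ± 15.8 TPM in control. The CA1 list, whose cells also make calbindin, summed to 564 to 625 TPM in PFOS P8-14, 552 to 664 TPM in PFOS P1-7 and 582.5 to 595 TPM in control, and the interneuron list to 2201 to 2786, 2045 to 2805 and 2229 to 2415 TPM. None of the genes in either list was at 0, and their part in the Calb1 result was not tested.

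Under the processing alternatives, the direction against control held in 8 of the 10 genes in each window, C1ql2 and Lct being the exceptions in both. Which libraries entered set how many genes were called. Without control replicate 1, limma called 4 of the 10 in PFOS P1-7 (Prox1, Dsp, Ahcyl2 and Glis3, adjusted p = 0.00719, 0.00719, 0.0421 and 0.0223) among 18.5% of tested genes, and Prox1, Dsp and Glis3 in PFOS P8-14 among 12.1%. Both controls that then remain have a negative length trend, while all 3 PFOS P1-7 libraries have a positive one. After removal of that trend as well, Prox1 and Glis3 were called in PFOS P1-7 (log2 difference 0.84 and 0.73, adjusted p = 0.0211 and 0.0432) among 10.5% of tested genes, and in PFOS P8-14 (0.80 and 0.74, adjusted p = 0.0300 and 0.0474) among 7.68%. Dsp stood at 0.23 (adjusted p = 0.178) and 0.099 (adjusted p = 0.589) there. With array weights, which let noisier libraries count for less, limma called Prox1, Dsp, Dock10, Ahcyl2 and Glis3 in PFOS P1-7 (adjusted p = 0.0168, 0.0123, 0.039, 0.0233 and 0.0276) among 20.3% of tested genes, and Prox1, Dsp and Glis3 in PFOS P8-14 (adjusted p = 0.0399, 0.034 and 0.0429) among 7.35%.

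**Figure D4:**
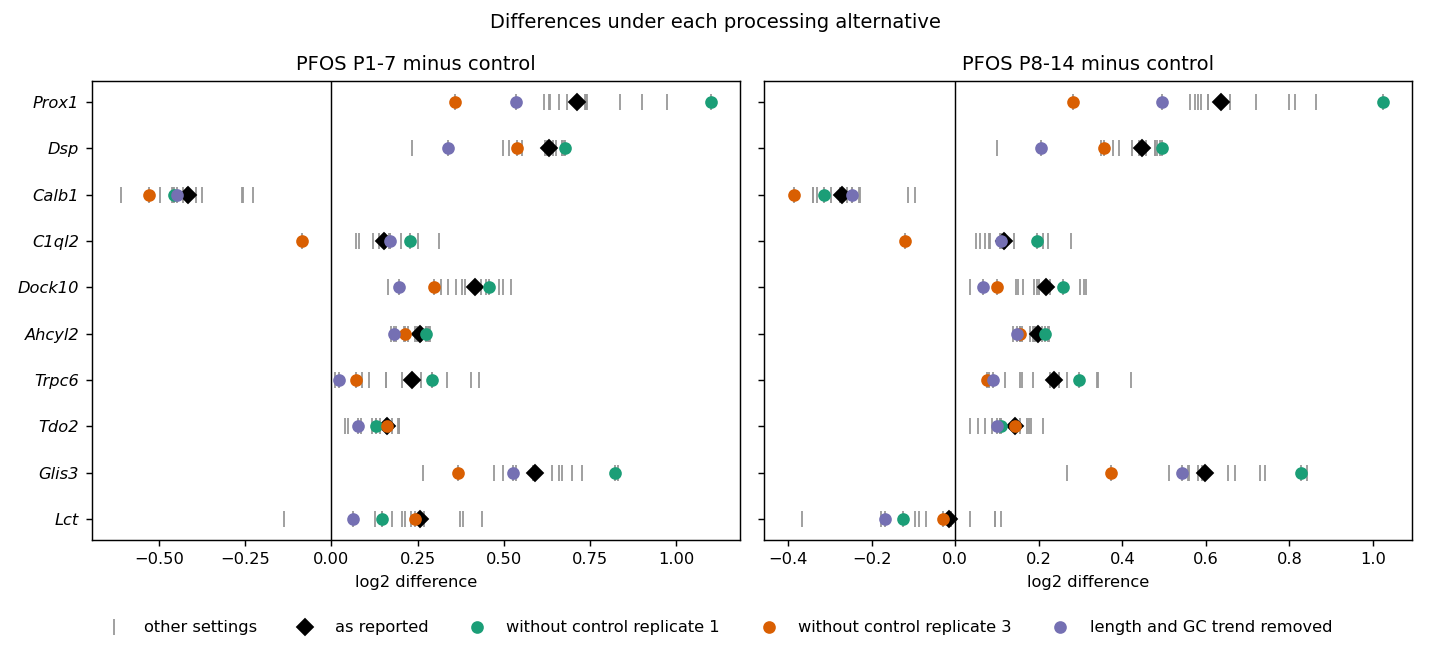
Log2 differences from control (x axis) of the 10 genes (y axis) in PFOS P1-7 (left) and PFOS P8-14 (right) as reported and under each alternative, grey ticks standing for those without a colour of their own. Prox1 runs from 0.36 to 1.10 in PFOS P1-7, its ends being the fits without control replicate 3 and without control replicate 1, while Ahcyl2 keeps to 0.17 to 0.28.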

How the data were processed

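Poly(A)-selected stranded libraries of total RNA from 9 hippocampus samples (3 groups of 3) were sequenced by the authors. The authors deposited 1 table of TPM per gene symbol, each column summing to 1000000 within rounding, with values to 2 decimals. The build mm10, the aligner STAR 2.5.3a, the quantifier RSEM 1.3.3, the trimmer fastp 0.21.0 and bcl2fastq are named per the submitters' processing notes; neither gene annotation nor filters nor strand setting were found in the sources used here. Depth cannot be read from such values, so no counting interval was made.

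The 14336 genes that reached 1 TPM in 3 or more of the 9 samples were tested with limma 3.58.1 in R 4.3.3 on log2(TPM + 1), with 1 mean per group, no covariate and a mean-variance trend, two-sided, and p-values were adjusted by Benjamini-Hochberg over every tested gene (threshold 0.05). Fold changes are on that scale and understate changes of low genes. The median standard error over all tested genes was 0.13. A test of any difference among the 3 groups called 0 genes by limma, with 1622 at an unadjusted p below 0.05. The fit was tested on simulated data. Positions and median transcript lengths are from GENCODE M21 (GRCm38), with lengths for 99.1% of tested genes. Medians of length and GC content are over all annotated transcripts of a symbol, not weighted by expression.

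Members and lists were chosen with earlier results of these data known. By a rule set beforehand, text names all 10 members and Ttr, Dcx and Gad1. From the further granule list the rule takes the 3 genes with the smallest p over the 3 groups and the 2 with the smallest p in each comparison. Outside the rule, Dgat2, Gabrd, Sox4, Neurod1, Eomes, Stmn1, Calb2 and Ajap1 were named after their values were seen. The symbols Nectin3 and Dnah11 were matched as Pvrl3 and Dnahc11 through RefSeq synonyms. Marker lists of astrocytes, oligodendrocytes, microglia, endothelium, mural cells, ependyma, thalamus and neocortex served as checks. Alternatives were a pseudocount of 0.1 or 5, testing without a filter, filtering at 5 TPM, median-of-ratios scaling, quantile normalization, a replicate block, only the compared groups, array weights, a choroid plexus covariate and each library left out. Removal of a loess trend on length and GC content, with and without control replicate 1, and the split by Ttr at 1000 TPM were added after seeing the data. Figures used matplotlib 3.10.9.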

Additional observations from a re-analysis of the deposited data

How the results depend on the processing

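With array weights limma called 2914 genes in PFOS P1-7 and 1053 in PFOS P8-14 against control and 1532 for any difference among the 3 groups, where 0 were called as reported. After removal of the length and GC trend, and without control replicate 1, these counts were 1490, 1092 and 737, and 3 members had an unadjusted p below 0.05 in PFOS P1-7 (29.7% of all tested genes) against 6 as reported (18.3%). Leaving out single libraries gave 0 to 2658, 0 to 1741 and 0 to 1493 called genes, the highest each time without control replicate 1. Members at an unadjusted p below 0.05 then numbered 3 to 5, 1 to 4 and 0 to 1 in PFOS P1-7, PFOS P8-14 and PFOS P8-14 minus PFOS P1-7, while the shares of all tested genes ran from 9.42% to 34%, 4.97% to 30.2% and 0.718% to 3.18%. In PFOS P8-14 they were 5 with the choroid plexus covariate (15.5% of all tested genes) and 1 after removal of the length and GC trend (11.1%), against 3 as reported (11%). The count was 3 in PFOS P1-7 without control replicate 2 (9.42%), and 1 in PFOS P8-14 without control replicate 3 (5.92%) or without PFOS P8-14 replicate 1 (7.04%). Members without overlap in PFOS P1-7 were 2 under quantile normalization (18.3% of all tested genes) and 2 with that trend removed (17.3%), against 4 (18.8%). Between the windows they were 0 with the trend removed (5.72%), with or without control replicate 1, and 1 to 4 with a library left out (6.05% to 21.8%), against 1 (6.05%), and in PFOS P8-14 3 to 5 (13.3% to 48.5%), smaller groups overlapping less by construction. The other causes were not tested.

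The following directions turned. Against control, with a library left out, C1ql2 ran from -0.085 to 0.31 in PFOS P1-7 and from -0.12 to 0.28 in PFOS P8-14, and Lct from -0.18 to 0.11 in PFOS P8-14. Lct was also -0.14 in PFOS P1-7 with the trend removed and control replicate 1 left out, and 0.095 in PFOS P8-14 with the covariate. Between the windows Tdo2 was 0.0031 with median-of-ratios scaling, 0.016 with quantile normalization and 0.024 with the trend removed, and Trpc6 was -0.065 with array weights and -0.0077 with the covariate. With a library left out, the same comparison ran from -0.012 to 0.34 for Calb1, -0.17 to 0.15 for Trpc6, -0.062 to 0.12 for Glis3, -0.13 to 0.048 for Tdo2, -0.13 to 0.0055 for Prox1 and -0.10 to 0.069 for C1ql2.

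Deviations of same-numbered replicates correlated across genes from -0.47 to 0.53, with no common sign. No such values were taken for differently numbered replicates, and a shared batch was not tested. The labels do not say that the numbers pair samples, and they were not taken to do so. With the replicate block limma called 0 genes in each comparison. The members at an unadjusted p below 0.05 numbered 6, 3 and 0, as without it. The shares of all tested genes were 21.7%, 14.8% and 1.87% with the block and 18.3%, 11% and 1.1% without it. A depth behind the TPM is unknown, which limits what can be said of Glis3.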

Other observations

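Calretinin, encoded by Calb2, is a calcium-binding relative of calbindin that mouse mossy cells and newborn granule neurons make; it and Ajap1 were named, out of the 6 mossy cell genes, after their values were seen. It was at 105 ± 39.98 TPM in PFOS P8-14, 63.8 ± 13.9 TPM in PFOS P1-7 and 105 ± 19.1 TPM in control (SD, n = 3 each). All PFOS P1-7 libraries lay below all control libraries, with a log2 difference of -0.72 (SE 0.25; limma adjusted p = 0.220), and PFOS P8-14 minus PFOS P1-7 was 0.67 (SE 0.25; adjusted p = 1). Ajap1, a junction-associated membrane protein, lay wholly above control in both windows. Its log2 differences were 0.20 in PFOS P8-14 and 0.18 in PFOS P1-7 (limma unadjusted p = 0.0289 and 0.0487, adjusted p = 0.432 and 0.270). Of all tested genes, 6.56% lay wholly below control in PFOS P1-7. Wholly above control were 12.3% in PFOS P1-7 and 7.31% in PFOS P8-14. Of the 6 mossy cell genes, 4 were higher and 2 lower than control in PFOS P1-7, and 3 and 3 in PFOS P8-14. The 6 mossy cell genes as a list had medians of 0.12 in PFOS P1-7 and 0.10 in PFOS P8-14 against control, where all tested genes had 0.09 and 0.06.

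Among glial and vascular lists the medians against control were 0.12 (PFOS P1-7) and 0.07 (PFOS P8-14) for astrocytes, 0.25 and 0.12 for oligodendrocytes, 0.18 and 0.08 for microglia, 0.04 and 0.06 for endothelium, and 0.06 and -0.05 for mural cells. The lists of neighbouring tissues had medians of 0.14 and 0.08 for neocortex and subiculum, 0.03 and 0.15 for thalamus, 0.48 and 0.47 for ependyma, 1.67 and 1.54 for choroid plexus, and -0.0092 and 0.23 for meninges. None of their genes passed over all genes.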
